A study of Homo sapiens with 4 samples.

Results

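The miRNAs numbered 1000 and above that were detected in EVs (extracellular vesicles) of PC3 cells are described here. PC3 is a prostate cancer cell line that came from a bone metastasis. The members were all rows named hsa-miR-N with N of at least 1000 and at least 5 reads summed over 2 small RNA libraries, leaving out miR-1246, miR-1260a, miR-1260b, miR-3135b, miR-3182, miR-4286, miR-4448, miR-4454, miR-7641 and miR-7975. This left 99 members among the 2588 miRNA names of the table. The members were thus chosen by their read counts in these libraries, so their number and levels are a description and carry no test. All samples come from PC3 EVs without further treatment, as 2 small RNA libraries and 2 total RNA libraries, each pair described by the study as biological replicates of a single condition. The titles of both total RNA samples carry the same mark, EX1, while their replicate labels and descriptions differ, so it was not settled that these libraries are independent, and counts of genes with a read in both rest on that. The cells were cultured with fetal bovine serum, which was an exosome-free product while EVs were collected. For the isolation of vesicles the study names both the exoEasy Maxi kit and qEV gravity flow columns. The 2 small RNA columns share a single label, so they are named here by their order, first and second, with no replicate number.

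The libraries held 154185 and 113185 reads counted on miRNAs, so 1 read equals 6.49 CPM in the first and 8.84 CPM in the second, where CPM stands for reads per 1000000 reads counted on miRNAs in that library. As the smallest level that can be shown, 3 reads equal 19.5 and 26.5 CPM, and floors and intervals cover counting error only, since amplified reads are not independent molecules. In total RNA the epithelial keratin KRT8 had 966 and 1088 reads and KRT18 had 94 and 87. The epithelial genes EPCAM, with 2 and 26 reads, and CDH1, with 4 and 14, were lower and less even between the replicates. KLK3 and KLK2, kallikreins secreted by luminal prostate cells, were at 0 in both total RNA libraries. Of 6 epithelial miRNAs only miR-200c-3p had a read in both small RNA libraries, with 11 and 4, miR-141-3p had 0 and 1, and miR-200a-3p, miR-200b-3p, miR-429 and miR-205-5p were at 0 in both. Of 7 miRNAs typical of blood cells only miR-486-5p had a read in both libraries, with 6 and 7, and the liver miRNA miR-122-5p had 39 and 26.

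A miRNA is cut from a hairpin precursor by Drosha and Dicer, and a strand of the resulting duplex is loaded into an Argonaute protein, where its seed guides it to target mRNAs. Names are numbered in the order of registration, so high numbers mark sequences that were mostly registered from deep sequencing. Some entries lie inside other structured RNAs, such as rRNA, snoRNA or Y RNA, whose fragments are also found in EVs.

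Mature sequences were taken from RefSeq on GRCh38.p14, which held 69 of the 99 members. The sequences of the members among the 20 highest that had an entry are shown, as these members led by level. These 12 held 49.1% of all reads on members. They run 5′ to 3′ and the capitals mark the seed, bases 2 to 8.
miR-4791: uGGAUAUGaugacugaaa
miR-6073: gGUAGUGAguuaucagcuac
miR-3976: uAUAGAGAgcaggaagauuaaugu
miR-4301: uCCCACUAcuucacuuguga
miR-4497: cUCCGGGAcggcugggc
miR-4797-5p: gACAGAGUgccacuuacugaa
miR-4797-3p: uCUCAGUAaguggcacucugu
miR-1268a: cGGGCGUGgugguggggg
miR-6131: gGCUGGUCagaugggagug
miR-3929: gAGGCUGAugugaguagaccacu
miR-8085: uGGGAGAGaggacugugaggc
miR-4492: gGGGCUGGgcgcgcgcc
The other members of the 20 were miR-4419a, miR-1273g-3p, miR-1273a, miR-6883-5p, miR-5096, miR-4508, miR-6087 and miR-1273f. The 69 sequences had 69 different seeds. None of these was shared with a miRNA numbered below 1000, or let-7, that had at least 5 reads, nor with a name left out by the rule that had a sequence.

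On GRCh38.p14 miR-4791 lies at chr3:19314907-19314924 on the minus strand, opposite an intron of the potassium channel gene KCNH8. miR-6073 lies at chr11:15969555-15969574 on the minus strand, in a hairpin that overlaps an exon of SOX6, a transcription factor gene. miR-3976 lies at chr18:5840702-5840725 on the plus strand, in an intron of the lncRNA gene MIR3976HG. miR-4301 lies at chr11:113450059-113450078 on the minus strand, in an intron of DRD2, a dopamine receptor gene. Both arms of miR-4797 come from the minus strand of an intron of DLG1, which encodes a scaffold protein of cell junctions, with the 5p arm at chr3:197293919-197293939 and the 3p arm at chr3:197293888-197293908. miR-8085 lies at chr19:44758667-44758687 on the plus strand and its hairpin overlaps an exon of BCL3, an NF-kappaB regulator. miR-4497 at chr12:109833350-109833366, miR-1268a at chr15:22225308-22225325, miR-6131 at chr5:10478107-10478125 and miR-3929 at chr18:35934088-35934110 lay in no other annotated gene on either strand. Gene annotation was that of GENCODE release 44.

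Together the members took 4282 reads of the first library and 3313 of the second. This was 2.78% (95% Wilson interval 2.70 to 2.86%) and 2.93% (2.83 to 3.03%) of the miRNA counts, a mean of 2.85% ± 0.106 (SD, n = 2). The 10 names left out took 62.9% and 69.1%, and names below 1000 with let-7 took 34.2% and 27.8%. Which of these sets differed between the libraries depends on the total. With the 10 names taken out of it, the members held 7.48% and 9.47% and names below 1000 with let-7 held 92.1% and 90.0%.

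Reads were concentrated on few members. The highest 4 by reads held 35.8% of the members' reads, the highest 10 held 60.3% and the highest 20 held 79.1%. The median member had 19 reads over both libraries and the highest had 775. There were 32 members with 5 to 9 reads, 20 with 10 to 19, 30 with 20 to 99 and 17 with more. The highest of them ranked 24 among all names of the table by mean CPM.

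miR-4419a led the members with 386 reads of the first library and 389 of the second, 2970 CPM ± 660 (SD, n = 2). For miR-4791 the reads were 401 and 350, a mean of 2847 CPM with an SD of 348. For miR-6073 they were 385 and 293, a mean of 2543 CPM with an SD of 64.8. The gaps between these 3 means were smaller than the SD of the leading member, so their order is not resolved. miR-1273g-3p, with 326 and 188 reads, had a mean of 1888 CPM and an SD of 321, and miR-3976, with 185 and 275, had a mean of 1815 CPM and an SD of 870. miR-3976 was below miR-1273g-3p in the first library and above it in the second.

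Of the next members some were closer between the libraries. miR-4301, with 236 and 137 reads, had 1531 and 1210 CPM, and miR-4497, with 207 and 120 reads, had 1343 and 1060. miR-1273a, with 136 and 107 reads, had 882 and 945 CPM. The arms of miR-4797 followed at nearly equal levels, with 804 and 963 CPM of the 5p arm and 798 and 937 of the 3p arm. miR-1268a, with 136 and 67 reads, had 882 and 592 CPM and was lower in the second library.

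From miR-6131, with 94 and 87 reads, to miR-4508, with 86 and 74, the levels lay between 606 and 689 CPM, with miR-6883-5p at 95 and 85 reads and miR-5096 at 89 in each library. The means of neighbours in this stretch lay within the larger SD of each pair. miR-6087 had 88 and 54 reads, miR-3929 had 61 and 45, and miR-8085 had 58 and 41. The last of the 20 were miR-1273f, with 47 and 43 reads, and miR-4492, with 56 and 32.

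**Figure D1:**
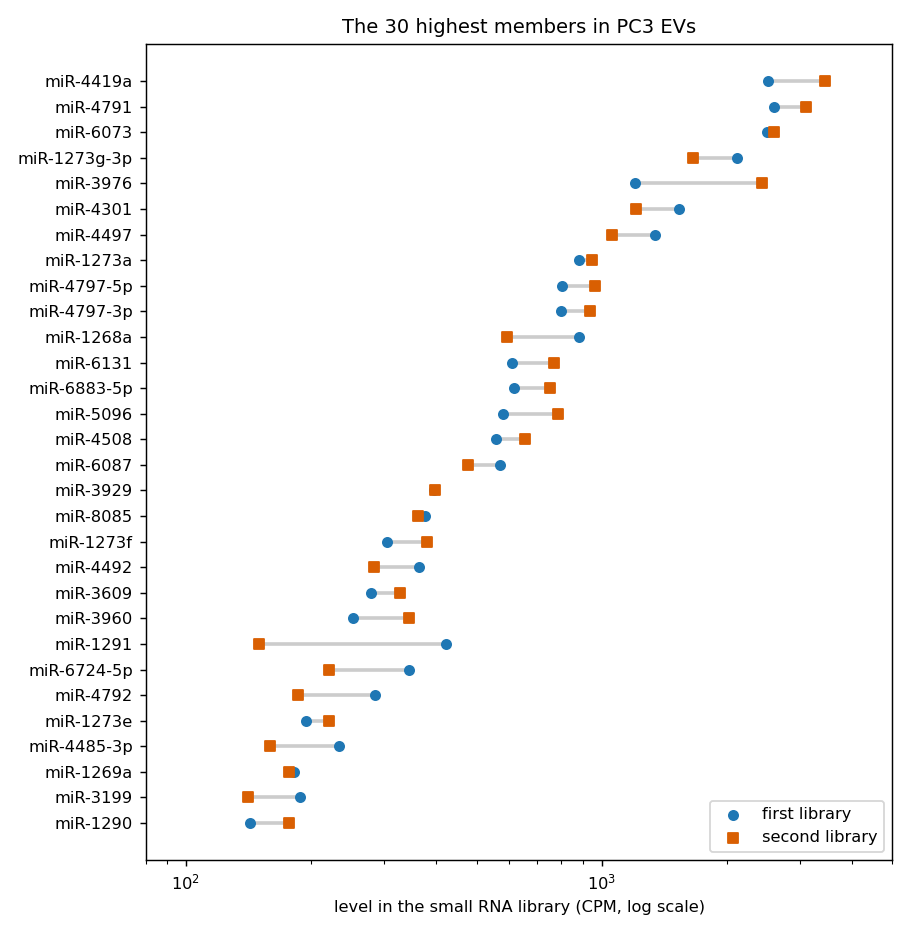
Levels of the 30 highest members in CPM on a log axis, with a circle for the first and a square for the second small RNA library and a grey line between them. Most pairs lie close together, and the widest gaps are those of miR-3976, higher in the second library, and miR-1291, higher in the first.

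A read was counted in both libraries for 97 of the 99 members, at least 3 reads in both for 72 and at least 10 in both for 42. The 2 exceptions were miR-1915-3p and miR-3665, each with 7 reads of the first library and none of the second, where 0 of 113185 reads allows a level of up to 26.5 CPM. The Spearman correlation of CPM between the libraries was 0.831 over the 99 members and 0.925 over the 47 of them with 20 reads or more. For 107 names below 1000 with at least 20 reads it was 0.944. These correlations are across miRNAs of the same 2 libraries and describe them only.

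**Figure D2:**
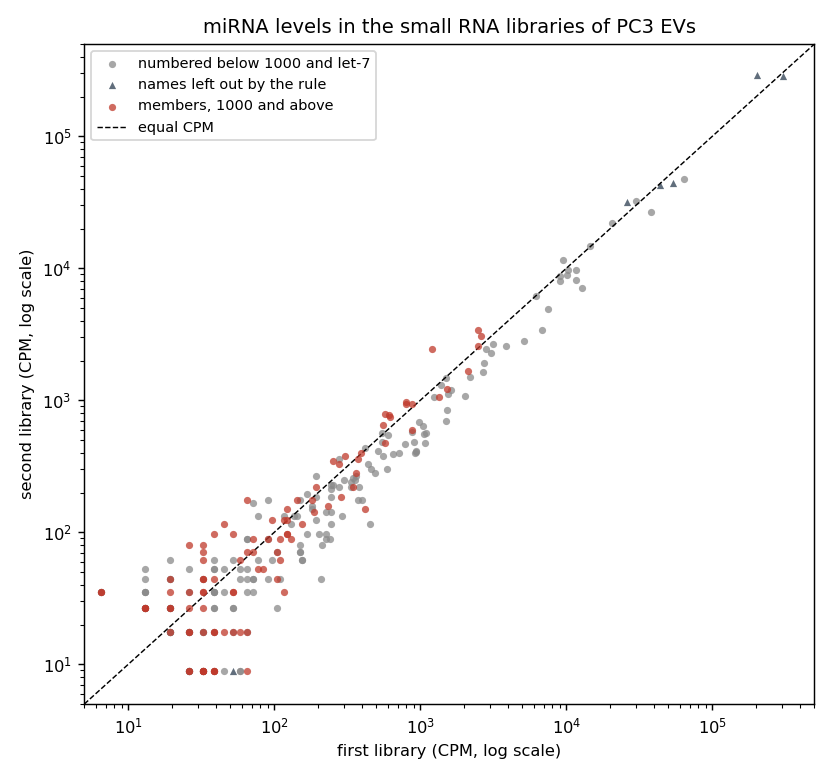
CPM of each miRNA with at least 5 reads in the first library (horizontal) against the second (vertical), both on log axes, with members in red, names below 1000 and let-7 in grey and left-out names as triangles. Names at 0 in a library are not drawn, the dashed line marks equal CPM, and most grey points of middle level fall below it while the red points lie on both sides.

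How the reads of each miRNA were divided between the libraries was not used by the rule and was tested with a two-sided exact binomial test, adjusted by Benjamini-Hochberg over 281 miRNAs with at least 5 reads. The test compares 2 libraries of the same condition with counting error, and no conditions. In all, 6 of the 99 members passed at an adjusted p under 0.05, against 19.6% of the miRNAs tested. In the second library 3 members were higher, against 2.85% of all tested, and 3 were lower, against 16.7%. Power rises with reads, so the same was counted at 20 reads or more. There 6 of 47 members (12.8%) and 45 of 107 names below 1000 (42.1%) passed, and 42 of those 45 were lower in the second library. Of the members with that depth, 23 were lower, and the median log2 ratio of second to first was 0.01 for members and -0.52 for names below 1000. A minimum of 20 reads does not match depth between the sets, as the highest member had 775 reads and the highest name below 1000 had 15314. The shares that passed are therefore not compared at equal power.

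miR-3976 went from 185 to 275 reads, a ratio of CPM of 2.02 (95% interval 1.67 to 2.45, counting error only, adjusted p = 1.68e-12). Its adjusted p stayed at or below 4.58e-12 under all alternatives. miR-4419a, with 386 and 389 reads, had a ratio of 1.37 (1.19 to 1.58, adjusted p = 0.000110). miR-4461, with 10 and 20 reads, had a ratio of 2.72 (1.22 to 6.52, adjusted p = 0.0456), and its adjusted p ranged from 0.0153 to 0.124 over the alternatives. All 3 were higher in the second library.

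Lower in the second library was miR-1291, with 65 and 17 reads, a ratio of 0.356 (0.196 to 0.615, adjusted p = 0.000437, at most 0.0110 under all alternatives), which lies inside the snoRNA gene SNORA2C. miR-1268a had a ratio of 0.671 (0.493 to 0.906, adjusted p = 0.0389) and miR-1273g-3p of 0.786 (0.653 to 0.943, adjusted p = 0.0438). Both of these depended on the scaling, with an adjusted p between 0.0288 and 0.453 for miR-1268a and between 0.0324 and 0.847 for miR-1273g-3p over all alternatives. TMM scaling raised each log2 ratio by 0.17. Their adjusted p was then 0.238 and 0.470, miR-4791 at 1.34 and miR-5096 at 1.53 passed instead as higher, and the 6 members that passed divided as 5 higher and 1 lower, against 4.63% and 9.61% of all tested. Median-of-ratios factors gave the same division, against 4.63% and 10.3%. With library totals that leave out the 10 names the rule excludes, which raised each log2 ratio by 0.27, 8 members were higher and 1 was lower, against 7.12% and 7.83%.

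By number, 27 of 178 names in the 1000s were members (15.2%), holding 1524 reads, and 28 of 506 in the 4000s (5.53%), holding 3332. There were 21 of 282 in the 3000s (7.45%) with 958 reads and 12 of 427 in the 6000s (2.81%) with 1386. The 2000s gave 1 member, the 5000s and the 7000s 4 each and the 8000s 2. For comparison, 18.7% of the names below 1000 and let-7 reached 5 reads.

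Of the 99 members 67 (67.7%) had no arm in the name, and they held 77.6% of the members' reads. Among names below 1000 and let-7 with at least 5 reads it was 18 of 176 (10.2%), and among all names of 1000 and above in the table it was 38.3%. A hairpin is usually registered with both arms only after reads from each have been seen. Of the 29 members whose other arm was listed, 15 had no read on it in either library, such as miR-6883-5p with 95 and 85 reads against 0 and 0 of its 3p arm, and miR-1307-3p with 18 and 14 against 0 and 0.

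Both arms were members for 6 hairpins. miR-1273g was one-sided, with 326 and 188 reads of the 3p arm and 5 and 1 of the 5p arm. miR-4485 had 36 and 18 reads of 3p and 18 and 4 of 5p, and miR-6516 had 19 and 11 of 3p and 5 and 3 of 5p. miR-1285 had 20 and 10 reads of 5p and 16 and 8 of 3p, and miR-1304 had 8 and 4 of 5p and 6 and 2 of 3p, all near even.

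In miR-4797 the arms were the most even of all, with a ratio of the larger to the smaller sum of 1.02. The arms are shown with capitals marking the stretch in which each is the reverse complement of the other.
miR-4797-5p: gACAGAGUGCCACUUACUGAa
miR-4797-3p: ucUCAGUAAGUGGCACUCUGU
The stretch covers 19 of 21 bases, and the reads of the arms differed by 1 in the first library and by 3 in the second. Among 23 hairpins below 1000 and let-7 with at least 5 reads on both arms the ratio had a median of 7.29 and was under 1.5 in 2, and in the 20 of them with both sequences the longest such stretch was 12 bases. A read from either strand of such a duplex matches an arm in sense and the other in antisense. Whether the mapping counted antisense matches is not given in the sources used here, so the arms of miR-4797 cannot be told apart in these counts.

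The mature sequences differed in length and base composition from those of lower number. Both sets had a median length of 22 bases, but 20 of 69 members (29.0%) had 19 bases or fewer, against 1 of 158 names below 1000 and let-7 (0.633%). The shortest member had 16 bases and the longest 26. The median share of G and C was 61.1% in members and 47.8% in the others, and a share of at least 70% was found in 17 members (24.6%) and 2 others (1.27%). The first base was U in 37.7% of members and 48.7% of the others, and G in 17.4% and 4.43%. The 69 members with a sequence held 62.6% of the members' reads, and the others were not described in this way.

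**Figure D3:**
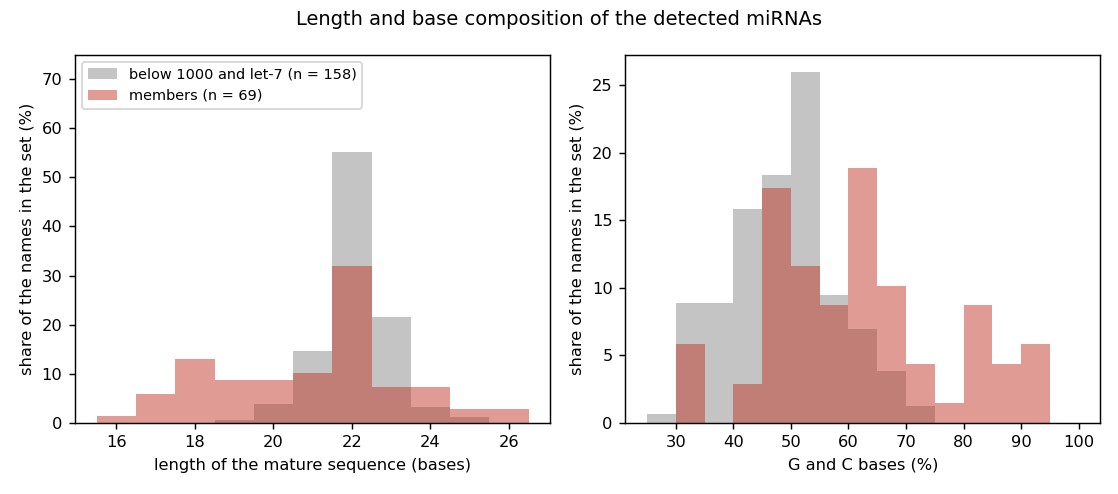
Distribution of length in bases (left) and of the share of G and C (right) for 69 members in red and 158 names below 1000 and let-7 in grey, as a percentage of each set. The members extend to 16 bases and to 94.4% G and C, where the grey set ends at 19 bases and 72.7%.

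An exact copy of the mature sequence was found once in the genome for 45 members (65.2%), against 76.6% of the others, and at least 4 times for 14 members (20.3%), against 5.06%. miR-1268a had 36 copies, miR-1303 had 35, miR-1285-3p had 18, and miR-1244 and miR-1973 had 8 each. Counts on these names cannot be assigned to a single locus.

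Mature sequences were then searched in annotated rRNA, tRNA, snRNA, snoRNA, scaRNA, 7SL, 7SK, Y, vault, RMRP and RPPH1 genes. A stretch of at least 16 bases was shared exactly by 16 of the 69 members (23.2%), and these held 35.2% of the reads of the members with a sequence. Among the 158 names below 1000 and let-7 it was 1 (0.633%). With 1 mismatch allowed it was 24 members (34.8%), holding 61.1% of those reads, against 4 names (2.53%). Both shares of reads depend on the minimum of 16 bases. With 1 mismatch miR-4791, miR-4301 and miR-4497 reached only 17 bases and miR-6073 only 16, so these high members drop out at 18 bases. The 16 members with an exact stretch are printed with capitals marking the shared bases. A shared stretch describes the sequence and does not say from which RNA a read came.

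The 45S rRNA gene RNA45SN2 held 8 of them. Inside its 28S part lay the following.
miR-4497: CUCCGGGACGGCUGGGc
miR-4492: GGGGCUGGGCGCGCGCC
miR-4488: AGGGGGCGGGCUCCGGCG
miR-7704: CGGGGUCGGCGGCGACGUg
miR-3196: CGGGGCGGCAGGGGCCuc
In its external spacers lay the other members of this group.
miR-1268a: CGGGCGUGGUGGUGGGGG
miR-3648: AGCCGCGGGGAUCGCCGAGGG
miR-4466: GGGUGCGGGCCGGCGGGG
Their share of G and C was between 81.0% and 94.4%. Together they had 442 and 249 reads, 2867 and 2200 CPM, a ratio of 0.767 (95% interval 0.654 to 0.898, counting error only). This ratio moves with the scaling of the libraries, and miR-4497 and miR-1268a held most of the reads. Names below 1000 and let-7 with at least 5 reads had a ratio of 0.813 (0.801 to 0.824). miR-4488 had 16 and 5 reads, miR-7704 had 12 and 6, miR-4466 had 6 and 11, miR-3196 had 5 and 5 and miR-3648 had 4 and 3. With 1 mismatch miR-6724-5p, with 53 and 25 reads, and miR-6126, with 17 and 7, shared 16 bases with the same gene. Of these 10, 7 had a lower CPM in the second library, as did 68.0% of the 281 miRNAs tested.

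Mitochondrial RNA held 3 of them, the large rRNA gene (RNR2) the first pair and the phenylalanine tRNA gene the last.
miR-4485-3p: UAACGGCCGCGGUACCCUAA
miR-1973: ACCGUGCAAAGGUAGCAUA
miR-4284: GGGCUCACAUCACCCCAU
miR-4485-3p had 36 and 18 reads, miR-1973 had 6 and 1, and miR-4284 had 19 and 17. All 3 are whole matches, while their annotated hairpins lie on chromosomes 11, 4 and 7. In the total RNA libraries MT-RNR2 had 176 and 173 reads and MT-TF, the phenylalanine tRNA gene, had 0 and 11.

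The other 5 matched snoRNA and scaRNA genes, which encode guides of rRNA and snRNA modification.
miR-4791: UGGAUAUGAUGACUGAaa
miR-1291: UGGCCCUGACUGAAGACCAGCAGU
miR-3651: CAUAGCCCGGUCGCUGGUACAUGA
miR-6516-3p: AUCAUGUAUGAUACUGCAAACA
miR-6516-5p: UUUGCAGUAACAGGUGUGAGCA
miR-4791, the second highest member, shared its first 16 bases with SNORD20. The hairpins of miR-1291, miR-3651 and miR-6516 overlap SNORA2C, SNORA84 and SCARNA16 on the same strand, at chr12:48654444-48654530, chr9:92292458-92292547 and chr17:77089417-77089497, so there the miRNA and the snoRNA or scaRNA are annotated from the same bases. miR-1291 had 65 and 17 reads and miR-3651 had 9 and 7. No read of SNORD20, SNORA2C, SNORA84 or SCARNA16 was counted in either total RNA library.

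Allowing 1 mismatch added Y RNA, the RNA partners of the Ro60 protein, along with U2 snRNA and 7SL, the RNA of the signal recognition particle. Here the capitals mark the bases that match.
miR-6073: GGUAGUGaGUUAUCAGcuac
miR-4301: UCCCACUaCUUCACUUGuga
miR-1290: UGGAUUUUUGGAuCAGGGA
miR-1285-3p: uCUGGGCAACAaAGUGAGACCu
miR-5684: aACUCuAGCCUGAGCAACAg
miR-6073 aligned with bases 13 to 28 of the 96 of RNY4, near its 5′ end, and miR-4301 with bases 75 to 91 of the 102 of RNY3, near its 3′ end. This pair had 621 and 430 reads, 4028 and 3799 CPM, and a ratio of 0.943 (0.832 to 1.07). miR-1290 matched U2 snRNA (RNU2-1) in 18 of 19 bases, miR-1285-3p matched RN7SL3 in 19 of 20 aligned bases, and miR-5684 matched RN7SL2 in 17 of 18. miR-5100, with 6 and 2 reads, aligned with a threonine tRNA gene over 16 bases with 1 mismatch and shared 15 exactly. The tRNA genes were searched on both strands. RNY1, RNY3, RNY4 and RNU2-1 were listed at 0 in both total RNA libraries. Of the 7SL genes, RN7SL2 had 83154 and 69876 reads, RN7SL3 had 23251 and 36549, and RN7SL1 was at 0 in both. A 0 here, or for the snoRNA and scaRNA genes above, does not show that the RNA was absent from the EVs.

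The 45 members with a sequence and no such stretch had 978 and 871 reads, 6343 and 7695 CPM, a ratio of 1.21 (1.11 to 1.33). Without miR-3976, with its 185 and 275 reads, the other 44 had 793 and 596 reads and a ratio of 1.02 (0.919 to 1.14). At library totals the higher sum in the second library thus rested on that member. The other scalings raised each log2 ratio by 0.14 to 0.27, and the sums were not computed with them. Also among the 45 members without such a stretch were both arms of miR-4797, miR-6131, miR-3929 and miR-8085. The search allowed at most 1 mismatch, so longer resemblance of these members to a structural RNA with more mismatches was not looked for. The 30 without a sequence had 1562 and 1276 reads, a ratio of 1.11 (1.03 to 1.20), and without miR-4419a the other 29 had 1176 and 887 reads and a ratio of 1.03 (0.941 to 1.12). These intervals cover counting error only, and each ratio moves with the scaling of the libraries.

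**Figure D4:**
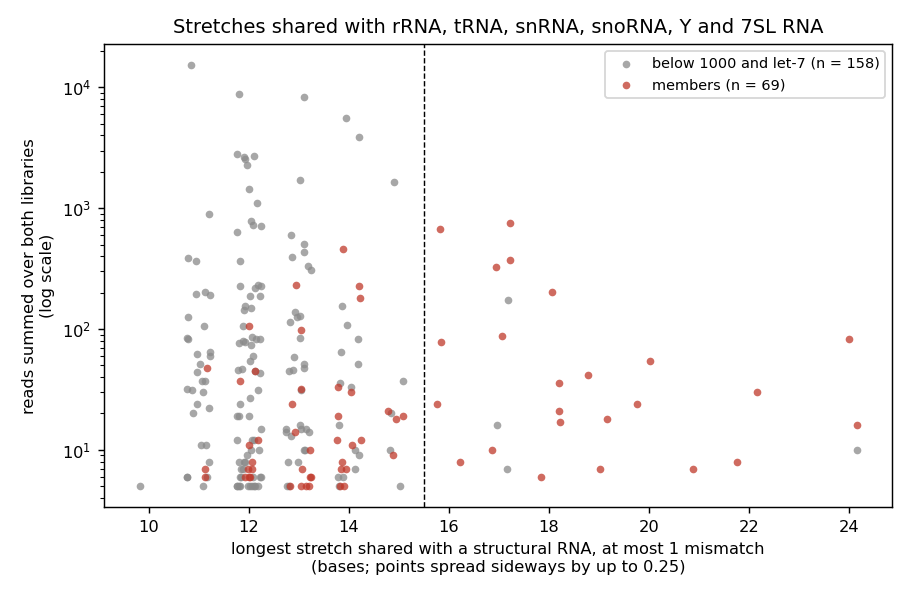
Longest stretch shared with a structural RNA at up to 1 mismatch, in bases, against the reads summed over both libraries on a log axis, for 69 members in red and 158 names below 1000 and let-7 in grey. The dashed line marks the minimum of 16 bases, with 24 members and 4 of the grey names to its right.

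The miR-1273 names were the largest group that shares a number, with 7 members and 551 and 372 reads, a ratio of 0.920 (0.804 to 1.05). miR-1273g-3p held most of them and miR-1273a and miR-1273f followed. miR-1273e had 30 and 25 reads, miR-1273d had 5 and 5, miR-1273g-5p had 5 and 1, and miR-1273h-5p had 2 and 3. miR-4419a, the leading member, had 386 and 389 reads against 2 and 3 of miR-4419b.

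To see whether the genes that hold these hairpins were also found in the EVs, host genes were looked up in the total RNA libraries, a readout that the rule did not use. An annotated hairpin was found for 80 members. Of these 49 lay in a gene on the same strand, 20 overlapping an exon and 29 in introns only, 17 lay only opposite a gene and 14 in no gene. Of 49 same-strand host genes listed for total RNA, 19 had a read in both libraries, 12 had at least 10 reads in both and 21 had none. Counting hosts on either strand, 27 had a read in both. The strand setting of the counting is not known, so reads of a host cannot be assigned to the strand of the hairpin. Among the protein-coding hosts a read in both was found for 18 of 37 (48.6%), against 21.9% of the 19629 protein-coding genes. These genes were not matched to the hosts in length or level, and hosts of undetected names were not counted. Whether reads of a host go with detection of its member was not tested.

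PTMA, the gene of prothymosin alpha, had the most reads of these hosts, with 356 and 260, while miR-1244, annotated in its exon and at 2 other loci, had 5 and 7. LARP1, an RNA-binding protein gene, had 77 and 72 reads and its intronic miR-1303 had 2 and 3. DNMT3A, which encodes a DNA methyltransferase, had 36 and 33 reads, with 19 and 11 of miR-1301-3p. NOP56, a core protein of box C/D snoRNPs, had 29 and 70 reads, with 3 and 4 of miR-1292-5p. KRIT1 had 78 and 33 reads and holds one of the 2 loci of miR-1285.

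Where a leading member lay in a gene on the same strand, that host had few or no reads. No annotated hairpin was found for some of the 20 highest, among them miR-4419a, miR-1273g-3p and miR-1273a, so no host could be looked up. Among the 20 highest, 7 lay in a gene on the same strand, and only DLG1, which holds both arms of miR-4797, had reads in both total RNA libraries, with 3 and 16. SOX6, DRD2, MIR3976HG and BCL3, the hosts of miR-6073, miR-4301, miR-3976 and miR-8085, were at 0 in both. PER1, a repressor of the circadian clock and the host of miR-6883-5p, had 0 and 6 reads. Host genes and members were counted in separate libraries of different kinds, so only presence is set side by side.

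**Figure D5:**
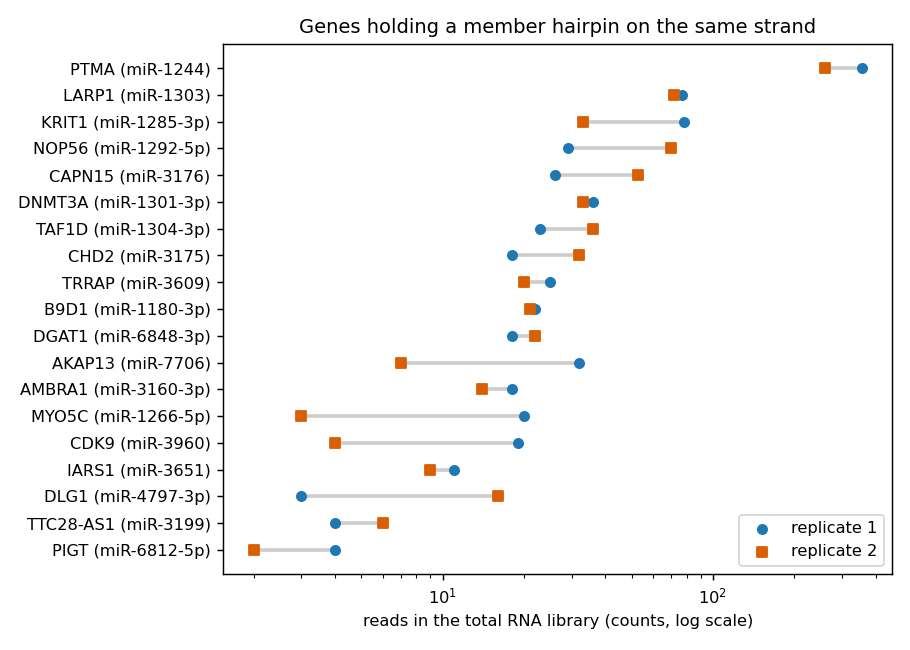
Reads of the 19 same-strand host genes found in both total RNA libraries, on a log axis, with a circle for replicate 1 and a square for replicate 2 and a member of each gene in brackets. PTMA lies apart at 356 and 260 reads and the lowest are in single digits.

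Of 62 member hairpin genes listed for total RNA, 9 had a read, and 3 had a read in both libraries. MIR1282 had 711 and 665 reads, or 1453 and 1397 per 1000000 gene counts, the highest of 1566 miRNA genes, while mature miR-1282 had 1 and 4. Its hairpin at chr15:43793659-43793759 lies opposite an exon of SERF2, which had 294 and 181 on that scale, and as the strand setting of the counting is not given in the sources used here, the reads of these genes cannot be told apart. MIR3195 had 17 and 22 reads opposite an exon of TAF4, and MIR3185 had 6 and 18 opposite an exon of PRAC2, which had 0 and 0. Mature miR-3195 had 5 and 4 reads and miR-3185 had 6 and 1.

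Some hairpins overlap each other. MIR3160-1 and MIR3160-2, which give the same miR-3160-3p with 8 and 11 reads, lie on opposite strands of the same bases on chromosome 11, as do MIR3199-1 and MIR3199-2 on chromosome 22, which give miR-3199 with 29 and 16 reads. MIR4433A lies opposite MIR4433B, and miR-4433a-3p had 14 and 10 reads. MIR3960 overlaps MIR2861 on the same strand, and miR-3960 had 39 and 39 reads.

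The study listed miR-1290 and miR-2110 among miRNAs linked to prognosis. miR-1290 ranked 30 among the members at 143 and 177 CPM. Its sequence shares 12 bases with the left-out miR-1246, the only shared stretch of at least 12 bases between a member and another detected name with a sequence. miR-2110 had 6 and 1 reads, so its level in the second library was under the floor.

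Around the minimum of 5 reads, membership depended on single reads. Just inside it, 8 members had 5 reads, namely miR-1273h-5p, miR-1282, miR-1303, miR-3934-5p, miR-4280, miR-4419b, miR-4513 and miR-5689. Just outside it, 13 names had 4 reads, among them miR-1248 with 3 and 1, miR-4516 with 2 and 2 and miR-6887-5p with 4 and 0.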

How the data were processed

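Small RNA and total RNA of PC3 EVs were sequenced as 2 libraries each. The values deposited by the authors are unnormalised counts, per mature miRNA after Cutadapt trimming and SHRiMP mapping for small RNA, and per Ensembl gene on GRCh38 from HTSeq for total RNA. Versions, mismatches allowed, strand settings and the handling of reads that fit several names are not given in the sources used here, and short reads shared with structural RNAs or repeats can be counted on a miRNA name.

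Counts were scaled to CPM by library totals. Splits between libraries were tested with the exact binomial test, with Benjamini-Hochberg adjustment over 281 miRNAs, after a test on simulated data. The simulation drew counting error only and took its expected split from unchanged names, so it did not check the use of library totals. Alternatives were TMM (edgeR 4.0.16) and median-of-ratios factors (DESeq2 1.42.0), other minimums, Fisher's exact test and leaving out each library. Sequences came from RefSeq (GRCh38.p14), copies from hg38 chromosomes, and hairpins from GENCODE 44, all exact unless stated, with Python 3.11.15 and R 4.3.3. Named are the 20 highest members, those called between libraries, those the study listed, both-arm and overlapping hairpins and those at the minimum. Others were named for shared sequences or host genes after their values were seen. Members and lists were chosen with earlier results of these data known. Some prostate markers are not reported here.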

Additional observations from a re-analysis of the deposited data

How the results depend on the processing

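With 20 reads as the minimum the number of members was 47, and with 5 reads required in the first or the second library alone it was between 61 and 82. Their share of the miRNA counts was 3.01% with no minimum, 8.48% with library totals that leave out the 10 excluded names and 68.8% with those names included, and between 2.78% and 2.93% when either library was left out. Reads in both libraries were found for 42 members at 10 reads, and for 97 to 99 when a single library was required. The members that differed between the libraries numbered 3 when all 765 miRNAs with a read were tested, which adds names with few reads to the adjustment. The share that passed over all 765 is not given here. With the totals that leave out the excluded names 9 members differed, against 14.9% of the 281 miRNAs tested. Hosts with reads in both total RNA libraries numbered 12 at 10 reads, and 22 to 25 when a replicate was left out. Other shared stretches, chosen after seeing the data, gave 15 members for 18 bases with 1 mismatch, 19 for 14 exact bases and 12 for 18 exact bases. The share of reads at these settings was not computed. The mean CPM of 22 named members moved by less than their SD under TMM and median-of-ratios factors, and all 22 moved by more with the totals that leave out the excluded names. With 2 libraries, leaving out either moves a mean by a fixed part of its SD, so this was no check of the levels, and miR-2110 was 38.9 or 8.84 CPM in a single library. No paired analysis was possible because there is only 1 condition per assay and the small RNA columns carry no replicate number. Most members rest on under 20 reads, and below that depth only large differences between the libraries could be shown.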
